A study of Mus musculus with 6 samples.

Results

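The genes described here are 30 genes of the MYC network and of ribosome biogenesis, taken by name from a list drawn up with earlier results of these data known, in thymocytes of mice with a knock-out of Tcf7, which encodes the DNA-binding factor TCF-1. All 30 were found by Entrez identifier among the 26332 genes of the count table, and all 30 passed the filter on low counts. The animals were 2 Tcf7 knock-out mice (KO 1, male, and KO 2, female) and 4 wild-type mice (WT 1 to WT 3, female, and WT 4, male), all of C57BL/6 background. Each library came from the thymus of an individual mouse. DN3 cells, the stage of T-cell development that rearranges the β chain of the receptor, were sorted as CD25+ cells lacking CD44 and lacking TCRβ, CD3 and CD8, with NK1.1+ and CD1d tetramer+ cells gated out. The labels used here state neither the age of the mice nor the part of Tcf7 that was removed. The question, from the series title, was what Tcf7 does in these cells.

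MYC is a transcription factor that binds DNA as a dimer with MAX, at sites with the letters CACGTG, and raises the output of the machinery that makes ribosomes. That machinery transcribes ribosomal RNA with RNA polymerase I, modifies it with small nucleolar ribonucleoproteins (snoRNPs), and cuts, folds and packs it in the nucleolus into the small (40S) and large (60S) subunits. In thymocytes MYC is known for the growth that accompanies pre-T-cell receptor signals, and MXD proteins compete with it for MAX. In the intestine, Myc is a known target of TCF factors acting with β-catenin.

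Total counts were 19589938 in KO 1, 13673860 in KO 2 and 23711513 to 41666797 in WT. Tcf7 stood at 1133 and 1022 CPM (counts scaled to the library total, after TMM scaling) in KO 1 and KO 2, against 2094 to 2326 CPM in WT, and fell by 1.05 on the log2 scale (SE 0.0857, edgeR adjusted p = 0.00127); transcripts of the gene were thus still counted in KO 1 and KO 2. Spread was wider among KO than among WT mice. The median biological coefficient of variation was 0.279 in KO and 0.0557 in WT over the 30 members, and 0.381 in KO and 0.0852 in WT over all genes tested. Of 12 DN3 markers, 2 rose (16.7%, beside 14.1% of all genes) and 5 fell (41.7%, beside 16.5%). Their summed level was 10424 and 10684 CPM in KO and 12025 to 12760 CPM in WT. Single markers differed more between the KO mice than this sum. Rag1 stood at 521 CPM in KO 1 and 1953 CPM in KO 2 (WT 1476 to 1925 CPM), and Rag2 at 32.6 and 114 CPM (WT 90.8 to 103 CPM). Il2ra differed the other way, at 1131 CPM in KO 1 and 708 CPM in KO 2 (WT 1751 to 2119 CPM).

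A subset of the ribosome biogenesis genes was moderately lower in KO cells, while Myc itself was not called. Of the 30 members, 10 fell at a Benjamini-Hochberg adjusted p under 0.05 in edgeR's quasi-likelihood test, none rose and 20 did not pass. Of all 13294 genes tested, 30.7% were called in either direction, 16.5% lower and 14.1% higher, so the members' share called lower was 33.3% beside a background of 16.5%. The 10 that fell were Odc1, Nop58, Wdr43, Ddx21, Polr1b, Nolc1, Nop16, Gnl3, Ncl and Rcl1, and their fitted falls lay between 23.2% and 46.1%. DESeq2 called 14 members lower, beside 21% of all genes called lower by that tool. No member was called higher by DESeq2 or by limma-voom, and no member had a positive change with an unadjusted p under 0.05 in edgeR (0 of 30). The median log2 fold change of KO over WT was -0.42 over the members and -0.04 over all genes tested. Fitted changes were below 0 in 28 of 30 members (93.3%), beside 53.6% of all genes tested.

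Both KO libraries lay below the WT range in 15 members (50% of the list), beside 28.6% of all genes tested, and none had both above it, beside 22.9%. The summed level of the 30 members was 6967 CPM in KO 1 and 5543 CPM in KO 2, against 7597 to 8181 CPM in WT. In bulk RNA, fewer cells of a type and less RNA per cell cannot be told apart. limma-voom with weights by genotype, which lets the KO mice vary more, called 3 members lower (Nop58, Odc1 and Ddx21), beside 3.86% of all genes called lower by that test. Without WT 1, WT 2 or WT 3, edgeR called 4, 4 and 3 members lower (13.3%, 13.3% and 10% of the list), beside 5.94%, 6.25% and 6.43% of all genes. With sex in the model, leaving out WT 4 or KO 1 sets KO 2 alone against the WT females. Both settings thus make the same comparison. The median log2 fold change was then -0.65 and -0.63 over the members, beside -0.047 and -0.031 over all genes. Leaving out KO 2 sets KO 1 alone against WT 4. The median was then -0.082 over the members, near the -0.057 over all genes.

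**Figure D1:**
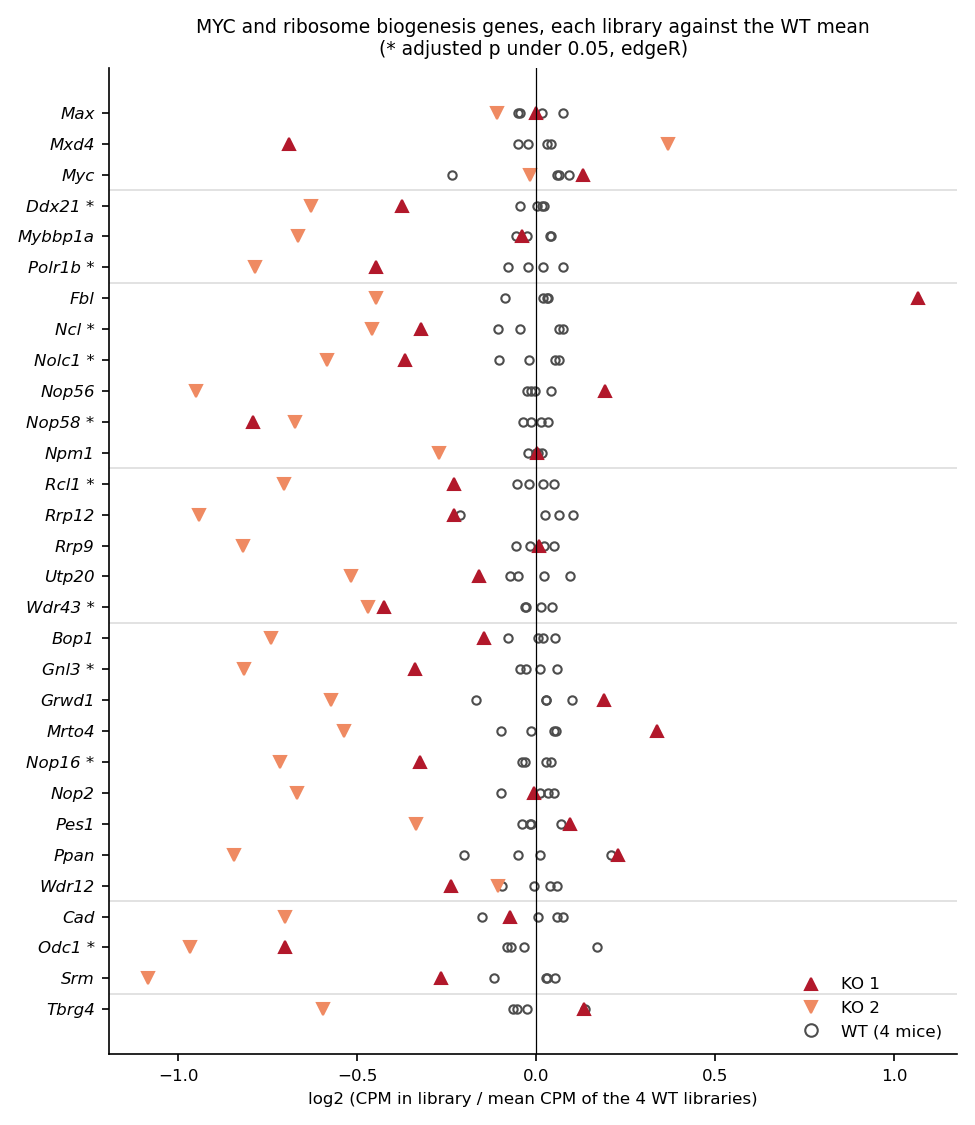
Each row is 1 of the 30 members, grouped by role with grey lines between groups, and the horizontal axis gives the log2 ratio of a library's CPM to the mean of the 4 WT libraries. Triangles are the KO mice and open circles the WT mice; asterisks mark the 10 members called lower, for which both KO triangles lie left of every WT circle, while Myc and Max lie near 0.

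Myc (Entrez 17869, chromosome 15, 61985341 to 61990361) was measured at 363 and 327 CPM in KO 1 and KO 2, against 346, 344, 352 and 281 CPM in WT 1 to WT 4. The groups overlapped, with KO 1 above every WT library, KO 2 within their range, and WT 4 lowest of all. The fitted change was 0.10 on the log2 scale (SE 0.115, 95% interval -0.19 to 0.39, edgeR adjusted p = 0.558), an interval that leaves room for changes of up to 1.31-fold in Myc transcript. Without WT 4, where KO 2 alone is set against the WT females, the change was -0.087. Without KO 2, where KO 1 is set against WT 4 as the other male, it was 0.35. Max, the obligate partner of MYC, stood at 132 and 122 CPM in KO against 133, 128, 127 and 139 CPM in WT, also overlapping (log2 -0.08, SE 0.0641, edgeR adjusted p = 0.381). Mxd4, which pairs with MAX and represses the sites MYC would activate, stood at 66.2 CPM in KO 1 and 138 CPM in KO 2, against 109, 109.9, 103 and 105 CPM in WT. The KO mice lay on opposite sides of the WT mice, so the fitted change was close to 0 with a wide interval (log2 -0.03, 95% interval -0.60 to 0.54, edgeR adjusted p = 0.929).

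Beyond the members, 11 more genes of the MYC network were listed and 9 had enough counts for a test. Of these, 2 rose (22.2%, beside 14.1% of all genes), 3 fell (33.3%, beside 16.5%) and 4 did not pass. With 9 genes, such shares rest on few calls. The MAX-binding repressor gene Mxd3 rose to 54.5 and 39.9 CPM in KO, against a mean of 23.3 ± 2.27 CPM in WT (SD, n = 4; log2 1.02, SE 0.178, edgeR adjusted p = 0.0131). Mxd1, another repressor of this family, rose to 27.0 and 31.2 CPM in KO, against 17.8 to 19.6 CPM in WT (log2 0.63, edgeR adjusted p = 0.0136). Neither group pair overlapped. Mycn, the paralogue of Myc, fell to 1.94 and 5.30 CPM in KO, against 18.8 to 26.4 CPM in WT (log2 -2.58, SE 0.447, edgeR adjusted p = 0.0127), and Mga, a MAX-binding scaffold of a repressor complex, fell to 191 and 222 CPM, against 301 to 314 CPM in WT (log2 -0.57, edgeR adjusted p = 0.00628). In both of these genes each KO mouse lay below every WT mouse. With weights by genotype in limma-voom, Mxd3, Mycn and Mga stayed under the threshold and Mxd1 did not (adjusted p = 0.256).

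The site bound by MYC with MAX was looked for in RefSeq promoter windows of GRCm38.p6, from 250 bases before to 50 after each start site. Of the 30 members, 24 have a window in that table. The letters CACGTG, which read the same on both strands, occurred in 8 of the 24 (33.3%), beside 11.7% of the 10096 tested genes with a window. Among the 10 members called lower it occurred in 1, Wdr43, and among the 14 members with a window that were not called it occurred in 7 (Max, Mxd4, Pes1, Mybbp1a, Nop2, Grwd1 and Utp20). The variant CATGTG, read on both strands, was in 3 of 24 members (12.5%) beside 10.5% of tested genes, and CTTTGA, a core bound by TCF and LEF factors, also on both strands, was in 1 of 24 (Ncl) beside 14.2%. No match of one motif overlapped a match of another in these windows. The stretches below run from 120 bases before to 30 after the start site, in lower case with CACGTG in capitals; Wdr43 is the called member that holds it, Nop58 and Odc1 are the members with the smallest p and hold none, and Max, Nop2 and Pes1 hold it near the start but were not called.
Wdr43 (chr17:71616095-71616244, plus strand): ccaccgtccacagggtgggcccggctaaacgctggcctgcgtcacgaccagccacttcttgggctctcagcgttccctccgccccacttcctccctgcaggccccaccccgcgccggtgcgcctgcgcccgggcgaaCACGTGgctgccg
Nop58 (chr1:59684886-59685035, plus strand): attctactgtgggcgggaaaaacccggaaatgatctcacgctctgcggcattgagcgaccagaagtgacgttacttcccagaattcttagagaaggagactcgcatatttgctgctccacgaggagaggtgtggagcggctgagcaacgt
Odc1 (chr12:17544753-17544902, plus strand): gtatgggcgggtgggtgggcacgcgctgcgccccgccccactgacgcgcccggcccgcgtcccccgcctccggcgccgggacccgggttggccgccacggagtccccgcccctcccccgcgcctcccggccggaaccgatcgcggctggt
Max (chr12:76962219-76962368, minus strand): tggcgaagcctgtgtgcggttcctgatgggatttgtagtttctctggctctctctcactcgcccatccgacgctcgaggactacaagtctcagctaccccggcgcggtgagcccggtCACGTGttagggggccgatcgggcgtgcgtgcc
Nop2 (chr6:125131763-125131912, plus strand): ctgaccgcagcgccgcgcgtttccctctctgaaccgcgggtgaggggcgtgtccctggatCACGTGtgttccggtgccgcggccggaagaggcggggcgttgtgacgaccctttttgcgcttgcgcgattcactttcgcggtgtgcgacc
Pes1 (chr11:3963855-3964004, plus strand): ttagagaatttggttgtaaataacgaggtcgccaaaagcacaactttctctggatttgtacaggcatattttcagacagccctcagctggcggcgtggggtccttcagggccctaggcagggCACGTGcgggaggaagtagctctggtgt
Counting the start site as base 1, the capitals begin at base 18 in Wdr43 and at base 3 in Pes1. They begin 3 bases before the start site in Max and 60 bases before it in Nop2.

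Ribosomal RNA transcription was represented by 3 members, of which 2 fell. Polr1b (Entrez 20017, chromosome 2, 129100970 to 129128060), a large catalytic subunit of RNA polymerase I, stood at 76.1 and 60.3 CPM in KO against 105, 102, 109.6 and 98.4 CPM in WT. Both KO values lay below all WT values, and the gene was 1.55-fold lower (log2 -0.63, SE 0.121, edgeR adjusted p = 0.017). Ddx21 (Entrez 56200, chromosome 10, 62580247 to 62602298), a nucleolar helicase that links polymerase I transcription to rRNA processing, stood at 375 and 315 CPM in KO against 494, 472, 493 and 488 CPM in WT. It too was separated from WT (log2 -0.53, SE 0.0829, edgeR adjusted p = 0.0092), and it was called by limma-voom as well (adjusted p = 0.0458). Mybbp1a, a nucleolar MYB-binding protein that restrains polymerase I, stood at 597 and 387 CPM in KO and 590.3 to 632 CPM in WT and was not called (log2 -0.40, edgeR adjusted p = 0.134).

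Of the 6 nucleolar chaperones and snoRNP core proteins, 3 fell and 3 did not pass. Nop58 (Entrez 55989, chromosome 1, 59684961 to 59711510), a core protein of the box C/D snoRNPs that guide rRNA methylation, stood at 223 and 242 CPM in KO against 396, 377, 383 and 390.2 CPM in WT. It was the steadiest fall of the group, similar in both KO mice and far below the WT mice (1.65-fold lower, log2 -0.72, SE 0.0695, edgeR adjusted p = 0.00198). Nop56 and the methyltransferase gene Fbl, whose proteins sit in the same particle, did not follow it. Nop56 stood at 245 CPM in KO 1 and 111 CPM in KO 2, against 210.4 to 221 CPM in WT (edgeR adjusted p = 0.248). Fbl stood at 118 CPM in KO 1 and 41.2 CPM in KO 2, against 52.9 to 57.5 CPM in WT (edgeR adjusted p = 0.679). In both genes KO 1 lay above the WT range and KO 2 below it.

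Nolc1 (Entrez 70769, chromosome 19, 46075847 to 46085543), a chaperone of snoRNPs on their way to the nucleolus, stood at 258 and 222 CPM in KO against 348, 328, 345 and 309 CPM in WT. The groups did not overlap (log2 -0.47, SE 0.102, edgeR adjusted p = 0.0231). Ncl (Entrez 17975, chromosome 1, 86344719 to 86359455), nucleolin, had the highest count of the list at 1728 and 1573 CPM in KO, against 2277, 2095, 2258 and 2008 CPM in WT (log2 -0.38, SE 0.0901, edgeR adjusted p = 0.0305). Npm1, the other abundant nucleolar histone-binding protein, stood at 552 CPM in KO 1, inside the WT range of 543 to 558 CPM, and at 456 CPM in KO 2, below it (edgeR adjusted p = 0.23). Several of these genes carry snoRNA genes in their introns, and those counted inside Ncl, Nop56 and Nop58 reached no more than 16 counts per library.

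In small-subunit processing 2 of 5 members fell. Wdr43 (Entrez 72515, chromosome 17, 71616178 to 71659031), a component of the complex that loads first on the new rRNA, stood at 188 and 182 CPM in KO against 260.0, 247, 255 and 247 CPM in WT. Its KO values were almost alike and well apart from WT (log2 -0.45, SE 0.0659, edgeR adjusted p = 0.0075). Rcl1 (Entrez 59028, chromosome 19, 29101375 to 29143851), which in yeast takes part in the cut that frees the small-subunit rRNA, stood at 76.7 and 55.2 CPM in KO against 93.1, 91.2, 88.8 and 86.7 CPM in WT (log2 -0.50, SE 0.139, edgeR adjusted p = 0.0488). That call sits at the threshold and was lost in 6 of 13 alternative analyses. Utp20, a long scaffold of the small-subunit processome, stood at 142 and 111 CPM in KO against 169, 153, 161 and 151 CPM in WT, separated but not called (log2 -0.35, edgeR adjusted p = 0.0859). Rrp12, which in yeast helps subunits leave the nucleus, stood at 76.3 and 46.6 CPM in KO against 77.2 to 96.0 CPM in WT, and Rrp9, a U3 snoRNP protein, at 74.1 and 41.8 CPM in KO against 70.9 to 76.4 CPM in WT. Neither was called (edgeR adjusted p = 0.117 for Rrp12 and 0.145 for Rrp9).

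Large-subunit assembly held 9 members, of which 2 fell. Gnl3 (Entrez 30877, chromosome 14, 31012433 to 31019131), the nucleolar GTPase nucleostemin, stood at 108 and 77.8 CPM in KO against 134, 138, 143 and 133 CPM in WT (log2 -0.61, SE 0.137, edgeR adjusted p = 0.0264). Nop16 (Entrez 28126, chromosome 13, 54584191 to 54590097), a pre-60S factor, stood at 57.4 and 43.8 CPM in KO against 73.3, 70.4, 74.0 and 69.9 CPM in WT (log2 -0.54, SE 0.121, edgeR adjusted p = 0.0255). Both genes were lower in each KO mouse than in any WT mouse. Pes1, Bop1 and Wdr12 encode the 3 proteins of the PeBoW complex, needed for maturation of large-subunit rRNA, and none was called. Bop1 came nearest, at 135 and 89.6 CPM in KO against 152, 150.2, 155 and 142 CPM in WT (log2 -0.48, edgeR adjusted p = 0.0882). Pes1 stood at 146 and 108 CPM in KO against 133 to 143 CPM in WT, and Wdr12 at 63.0 and 69.0 CPM in KO against 69.6 to 77.4 CPM in WT (edgeR adjusted p = 0.375 for Pes1 and 0.182 for Wdr12). In Bop1 and Wdr12 both KO mice lay below every WT mouse, whereas in Pes1 KO 1 lay above them and KO 2 below.

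The other 4 large-subunit genes split between the KO mice in the same manner or nearly so. Ppan, a pre-60S factor related to yeast Ssf1, stood at 102 and 48.7 CPM in KO against 76.1 to 101 CPM in WT. Grwd1, a WD-repeat histone-binding protein, stood at 67.8 and 39.9 CPM in KO against 52.9 to 63.7 CPM in WT. Mrto4, which holds the place of a stalk protein on the nascent subunit, stood at 50.8 and 27.7 CPM in KO against 37.6 to 41.8 CPM in WT. In these 3 genes KO 1 lay above every WT mouse and KO 2 below every WT mouse. Nop2, an rRNA cytosine methyltransferase, stood at 144 CPM in KO 1, inside the WT range of 135 to 149.7 CPM, and at 91.0 CPM in KO 2, below it. Adjusted p-values in edgeR were 0.155 for Ppan, 0.532 for Grwd1, 0.686 for Mrto4 and 0.194 for Nop2.

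Of the 3 enzymes of polyamine and pyrimidine synthesis, which are classical MYC targets, Odc1 fell. Odc1 (Entrez 18263, chromosome 12, 17544808 to 17551502), ornithine decarboxylase, the rate-limiting enzyme of polyamine synthesis, stood at 88.9 and 74.0 CPM in KO against 138, 141, 137 and 163 CPM in WT. This was the largest fitted fall of the 30 members, 1.85-fold (log2 -0.89, SE 0.065, edgeR adjusted p = 0.000883). Srm, spermidine synthase in the next step, stood at 159 and 90.2 CPM in KO against 198, 195, 195 and 176 CPM in WT. Its groups did not overlap and its fitted change was large (log2 -0.71), but with the KO mice apart it missed the threshold (SE 0.23, edgeR adjusted p = 0.0697). Cad, the 3-in-1 enzyme that opens pyrimidine synthesis, stood at 424 and 274 CPM in KO against 402 to 471 CPM in WT (edgeR adjusted p = 0.173). Tbrg4, whose protein acts on mitochondrial RNA, stood at 129 and 78.0 CPM in KO against 113 to 129 CPM in WT (edgeR adjusted p = 0.133).

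**Figure D2:**
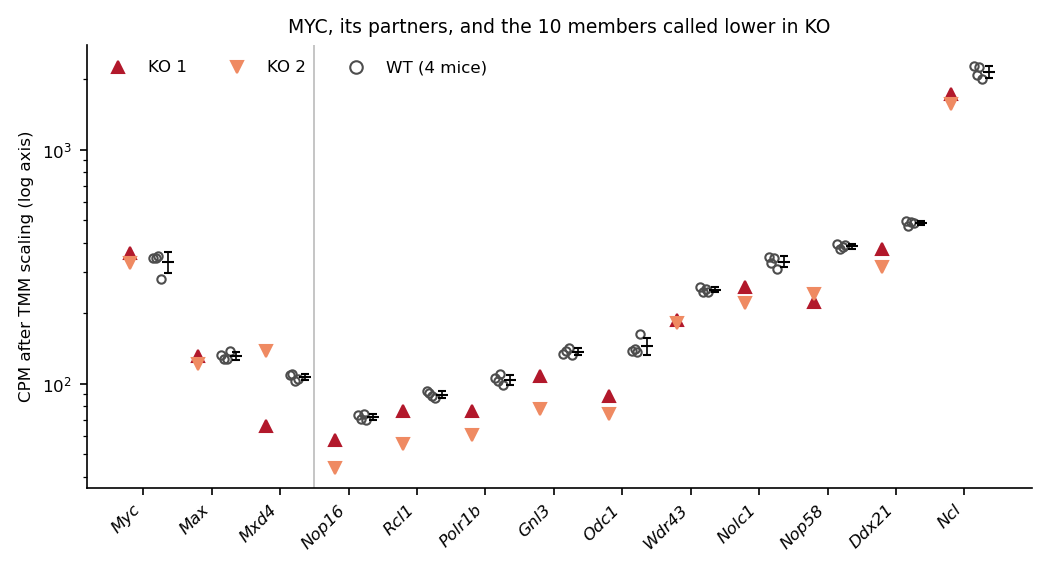
CPM on a log axis for Myc, Max and Mxd4 (left of the grey line) and for the 10 members called lower, ordered by WT level, with KO mice as triangles on the left of each gene, WT mice as open circles on the right, and bars for the WT mean ± SD (n = 4). The KO triangles overlap the WT circles for Myc and Max, straddle them for Mxd4, and lie below them for each called member, with the narrowest gap in Rcl1.

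Within the list, KO 2 was the lower of the KO mice in 27 members, beside 47.9% of all genes tested. KO 1 was the lower in Nop58, Wdr12 and Mxd4. The median log2 ratio to the WT mean was -0.65 in KO 2 and -0.15 in KO 1 over the members, beside -0.05 in each over all genes tested. KO 2 lay below the WT range in 28 members, within it in Myc and above it in Mxd4. KO 1 lay below the WT range in 16 members, within it in 7 and above it in 7. Across all genes tested, 44.9% were below the WT range in KO 2 and 46.5% in KO 1, and 38.1% and 40.5% were above it. In the 10 members called lower, the log2 ratio to the WT mean ran from -0.79 to -0.23 in KO 1 and from -0.97 to -0.46 in KO 2. A model with a genotype by sex term, which compares KO 1 over WT 4 with KO 2 over the WT females, passed the threshold in 25 members (83.3%), beside 54.7% of all genes tested. There is 1 KO mouse of each sex, so sex and mouse cannot be told apart.

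**Figure D3:**
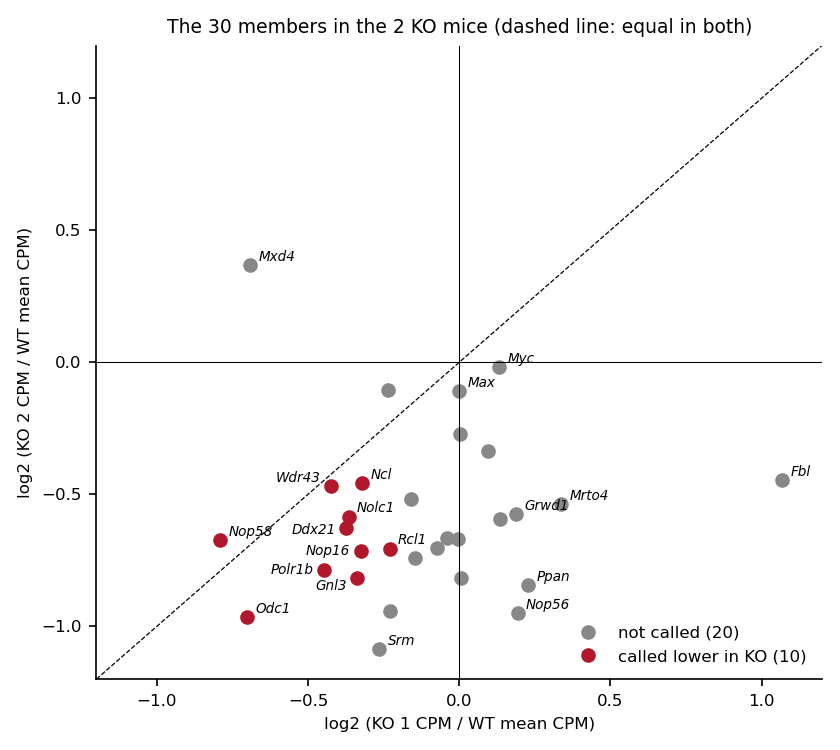
Each point is 1 of the 30 members, placed by the log2 ratio to the WT mean in KO 1 (horizontal) and in KO 2 (vertical), with the dashed line where both mice would be equal. The 10 called members (red) lie to the lower left of 0. Below the dashed line lie 27 of 30 points, beside 47.9% of all genes tested, and Fbl and Nop56 stand farthest from it.

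Per kilobase of the gene length in the deposited table, Npm1 had the highest level of the list, at 294 CPM per kilobase in KO (mean of 2) and 321 CPM per kilobase in WT (mean of 4). Ncl followed at 199.8 in KO and 262 in WT, then Nop58 at 118 in KO and 196 in WT, all in CPM per kilobase. WT ranges of these 3 genes per kilobase did not touch each other. The order of Npm1 and Ncl rests on the deposited lengths, 1718 bases for Npm1 and 8257 bases for Ncl. In CPM, Ncl stood above Npm1 in every library. Myc ranked sixth in WT at 138 CPM per kilobase, with 144 in KO, and its WT range of 117 to 147 CPM per kilobase overlapped the ranges of Srm and Mybbp1a, the genes above it, but not that of Nop56, the next below it. At the low end stood Utp20 (14.3 CPM per kilobase in KO, 17.9 in WT) and Rrp12 (14.2 in KO, 20.7 in WT), whose WT ranges overlapped. By KO means Myc stood after Npm1 and Ncl, while its own level overlapped between the groups.

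Beyond the 30 members, 181 further genes of the same pathways were listed, and 178 were tested: 46 fell (25.8%, beside 16.5% of all genes), 6 rose (3.37%, beside 14.1%) and 126 did not pass. Their median log2 fold change was -0.18. The other small-subunit genes gave 13 falls and no rise among 45, the other large-subunit genes 15 falls and 2 rises among 48, and the other snoRNP genes 5 falls and no rise among 14. The other RNA polymerase I genes gave 4 falls and 2 rises among 18, the other polyamine and nucleotide enzymes 3 falls and no rise among 30, and the RNA exosome 3 falls and no rise among 14. In limma-voom with weights by genotype, 8 of the 178 fell (4.49%, beside 3.86% of all genes) and 2 rose (1.12%, beside 7.42%), so the share called lower was close to that of all genes in that test. It was also close without KO 2, at 35.8% of these genes beside 37.3% of all genes.

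Among these genes, Rrp1b, a nucleolar regulator listed with the small subunit but known from large-subunit precursors too, fell to 66.5 and 54.6 CPM in KO against 128 to 133 CPM in WT (log2 -1.13, edgeR adjusted p = 0.00154). Pno1, a late small-subunit factor, fell to 52.2 and 48.2 CPM against 83.7 to 93.2 CPM in WT (log2 -0.80). Rsl1d1 and Nifk, of the large-subunit list, fell 1.55-fold and 1.51-fold. Ddx54 and Nop53 of that list rose instead: Ddx54, a helicase, to 356 and 463 CPM in KO against 245 to 254 CPM in WT (log2 0.75, edgeR adjusted p = 0.00471), and Nop53, an adaptor of the exosome, to 366 and 444 CPM against 275 to 311 CPM in WT (log2 0.50). None of these groups overlapped.

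Of the snoRNP list, Rpp40, a subunit of RNase P and RNase MRP, fell to 5.07 and 7.02 CPM in KO against 16.0 to 19.0 CPM in WT (log2 -1.49, edgeR adjusted p = 0.00221), and Naf1, an assembly factor of box H/ACA snoRNPs, fell to 31.0 and 34.0 CPM against 56.4 to 63.3 CPM. For RNA polymerase I, Taf1c, a subunit of its promoter factor SL1, fell to 40.8 and 52.1 CPM in KO against 84.3 to 93.8 CPM in WT (log2 -0.91), and Rrp8, an rRNA methyltransferase, fell 1.35-fold. Polymerase subunits did not move alike: Polr1b fell, whereas Polr1d, shared with polymerase III, rose to 129 and 119 CPM in KO against 97.5 to 102 CPM in WT, and Znrd1 rose to 78.1 and 51.6 CPM against 38.1 to 42.7 CPM in WT (edgeR adjusted p = 0.0233 for Polr1d and 0.0446 for Znrd1). Impdh1, an enzyme of guanine nucleotide synthesis, fell to 182 and 173 CPM in KO against 297 to 311 CPM in WT (log2 -0.78, edgeR adjusted p = 0.00109). Ppat, which opens purine synthesis, fell 1.26-fold with overlapping groups, and the exosome genes Dis3 and Exosc5 fell 1.35-fold and 1.34-fold.

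Of 24 proliferation markers, 8 rose (33.3%, beside 14.1% of all genes), 1 fell (Ccnd2, 4.17%, beside 16.5%) and 15 did not pass. Their summed level was 9714 and 7252 CPM in KO against 5525 to 6553 CPM in WT. Mki67, a marker of cycling cells, stood at 996 and 807 CPM in KO and averaged 480.0 CPM in WT (edgeR adjusted p = 0.011). KO 1, the mouse with the higher proliferation sum, was also the one with the higher sum of the 30 members. KO 2, the lower one, had the higher sum of B-cell markers. Over 10 such markers the sum was 22.4 CPM in KO 1, 220 CPM in KO 2 and 43.6 to 52.3 CPM in WT. Cd79b made up most of the WT sum, at a WT mean of 46.8 CPM. Without Cd79b the sum was 11.6 CPM in KO 1 and 157 CPM in KO 2, against 1.23 to 1.59 CPM in WT. Ms4a1, which encodes CD20, had 0 counts in KO 1, 483 counts in KO 2 and 0 counts in each WT library. Markers of double-positive and mature T cells summed to 1889 and 3312 CPM in KO against 585 to 742 CPM in WT, with 11 of 12 called higher. Of 10 NK and innate lymphoid markers, 5 were tested, and Gzma and Prf1 were called higher (40%, beside 14.1% of all genes). Gzma stood at 1333 and 1407 CPM in KO against 188 to 247 CPM in WT. Prf1 stood at 2.15 and 10.5 CPM in KO against 0.211 to 0.460 CPM in WT. The 9 markers other than Gzma summed to 53.5 and 65.4 CPM in KO against 55.2 to 71.6 CPM in WT. Most of that sum was Nkg7, at 51.2 and 48.7 CPM in KO against 54.0 to 70.0 CPM in WT. In KO, Ncr1 had 0 counts, Klrb1c 0 and 1 counts, and Klrd1 0 and 27 counts. The part of cell cycle, B cells and later T-cell stages in the members' values was not tested.

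**Figure D4:**
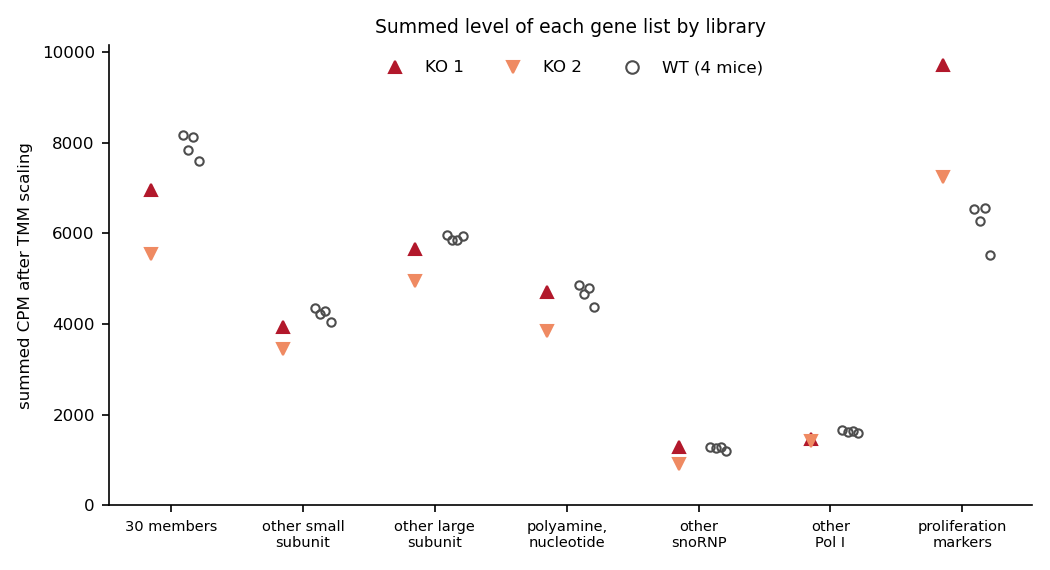
Summed CPM in each library (triangles KO, open circles WT) for the 30 members, for 5 lists of further pathway genes and for 24 proliferation markers, on an axis that starts at 0. Both KO mice lie below the WT mice for the members and above them for the proliferation markers, and KO 2 is lower than KO 1 in every list drawn.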

How the data were processed

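RNA of sorted cells was amplified with the SMART-Seq v4 chemistry, whose libraries carry no strand information, per the labels' protocols. The authors deposited unnormalized counts by Entrez identifier; featureCounts and mm10 are named per the submitters' processing notes, and for the aligner, not given in the sources used here, no setting can be stated. All 6 single-library tables equal the series table. Gene symbols and coordinates came from a RefSeq table of GRCm38.p6 (25275 of 26332 identifiers matched; 1 list entry, Hbb-bt, found no gene). The deposited gene length, under the heading GeneLength in the file headers, served for levels per kilobase.

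The test used edgeR 4.0.16 in R 4.3.3: filterByExpr with a count minimum of 10 (13294 genes), TMM scaling, and a robust quasi-likelihood test of genotype with sex as a term, which left 3 residual degrees of freedom. The SE is the size of the log2 change divided by the square root of F. Depth of 13673860 to 41666797 counts puts 3 counts at 0.072 to 0.219 CPM, and the lowest member had 371 counts in any library. Counting error was thus small beside the spread between the KO mice, at a members' median biological coefficient of variation of 0.279. Beside the spread between the WT mice, at 0.0557, it need not be small. Alternatives were DESeq2 1.42.0, limma 3.58.1 voom with weights by genotype, other scalings, no filter, no sex term, a replicate block and leaving out each library. The scripts were tested on simulated data. The chi-square statistic per degree of freedom over genes with at least 20 counts was 104 between the KO libraries and 3.37 to 23.1 between WT libraries, so none was a duplicate.

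The members and lists were chosen with earlier results of these data known. Values are given in every library for Myc, Max, Mxd4, called members and the 3 uncalled members with the smallest p, and for up to 2 called genes in each direction of each further list; values of the other members are given by range. Promoters shown beyond Wdr43 were chosen after their values were seen. Because strand is not marked, reads of overlapping genes cannot be told apart: Bop1 contains Scx, with at most 23 counts, and Nop56 shares 5 bases with Idh3b.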

Additional observations from a re-analysis of the deposited data

Results flagged for a closer look

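In 25 of the 30 members the genotype by sex term passed the threshold in edgeR (adjusted p under 0.05), so the change of KO 1 over WT 4 differed from that of KO 2 over the WT females. The term was above 0, with the change in the male pair the higher, in 24 of the 25, and below 0 in Mxd4. Its residual degrees of freedom, 2, come from the WT females alone, since each sex holds 1 KO mouse. It passed in 54.7% of all genes tested, and above 0 in 26.6%.

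WT 4, the male WT mouse, stood apart from the other WT mice in 3 members. Myc was at 281 CPM in WT 4 against 344 to 352 CPM in the others, Fbl at 52.9 CPM against 56.9 to 57.5 CPM, and Srm at 176 CPM against 195 to 198 CPM. In each the gap to the nearest WT mouse exceeded Dixon's 95% limit for 4 samples, which chance passes in about 1 in 20 groups; 51 genes were checked. WT 4 was the lowest WT mouse in 19 of the 30 members, and the share over all genes was not counted. Its median log2 ratio to the WT mean was -0.055 over the members, beside -0.006 over all genes tested.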

How the results depend on the processing

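The 10 calls remained with DESeq2 size factors, with library totals alone and without a count filter, and DESeq2 called the same 10 and 4 more. Without the sex term 9 of the 10 remained (Rcl1 was lost) and the median of the members was -0.33. limma-voom with weights by genotype called 3 members lower, 513 genes lower and 987 higher in all, and 8 further pathway genes lower and 2 higher, with a members' median of -0.34. Other pathway genes called higher numbered 11 in DESeq2. Replicate numbers mark no shared litter or batch in the labels. Same-numbered deviations from the mean of each genotype correlated at -0.15 (KO 1 with WT 1) and 0.03 (KO 2 with WT 2). With 2 KO libraries the deviations of KO 1 and KO 2 mirror each other, so these values are not separate checks. They cannot tell whether same-numbered libraries shared a batch. With a replicate block in place of sex, 1 residual degree of freedom remained: edgeR called 0 members (8 at an unadjusted p under 0.05, lowest adjusted p 0.0824), 335 genes lower and 413 higher, and 2 further pathway genes lower and 0 higher, and Myc was at -0.0031.

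Leaving out 1 library gave 3 to 26 members lower and 0 to 5 higher, 784 to 5152 genes lower and 881 to 4321 higher, 11 to 121 further pathway genes lower and 1 to 58 higher, and a members' median of -0.65 to -0.082. The ends of these ranges come from different fits, so a range of members cannot be set beside a range of all genes. The highest counts come from fits that set KO 1 alone or KO 2 alone against WT mice. The median of -0.082 is without KO 2, beside -0.057 over all genes in that fit. There KO 1 is set against WT 4 as the only other male and assumed to vary like WT, so the parts of KO 2 and WT 4 cannot be told apart. In that fit 18 members were below 0, and Fbl, Grwd1, Mrto4, Myc and Nop56 had the highest changes. Against the mean of all WT libraries, the median of KO 1 was -0.15 over the members, beside -0.05 over all genes. Without WT 4 or KO 1, KO 2 alone is set against the WT females. Log2 changes that changed sign when a library was left out ran from -0.087 to 0.35 for Myc, -0.68 to 0.38 for Mxd4, -0.28 to 0.012 for Npm1, -0.47 to 1.14 for Fbl, -0.96 to 0.19 for Nop56, -0.82 to 0.013 for Rrp9, -0.34 to 0.10 for Pes1, -0.75 to 0.066 for Cad, -0.76 to 0.0061 for Ppan, -0.68 to 0.0046 for Mybbp1a, -0.70 to 0.082 for Nop2, -0.63 to 0.35 for Grwd1 and -0.56 to 0.42 for Mrto4. Nop58, Odc1 and Ddx21 were called in 12 of 13 alternatives, all but the replicate block. The causes were not tested. p-values rest on 2 KO mice.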
